A study of Mus musculus with 13 samples.

Results

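The hedgehog (HH) signal was followed here at the level of the genes that make, release, receive and dampen it. The 9 genes were *Shh* and *Ihh* (ligands), *Disp1* (ligand release), *Ptch1* and *Hhip* (receptors), *Gas1*, *Cdon* and *Boc* (coreceptors) and *Smo* (signal transducer). They were taken by symbol, for their place in the pathway, from the 32793 gene rows of the deposited tables, and all 9 were present. The 13 RNA-seq libraries came from mouse embryos: 4 of E11.5 mutant trachea, 3 of E11.5 control trachea, 3 of E10.5 mutant foregut and 3 of E10.5 control foregut. Mutants carried Gli3TFlag/+ and a Cre, and controls were Gli3TFlag/+ with no Cre, so the Gli3TFlag allele was present in both and only the mutants could switch it on. The allele codes for a truncated, repressor form of Gli3, and the Cre recombines in the endoderm and mesoderm of the early foregut. The labels give the strain as C57BL/6, whereas the paper states that its mice were kept on an outbred background. The comparison asks how an excess of Gli3 repressor altered the HH machinery of the tissue that builds the trachea.

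In the embryonic foregut the ligand Shh is made by the epithelium and is read by the mesenchyme around it. Shh binds Ptch1, which otherwise holds Smo inactive, and once Smo is free the Gli transcription factors activate targets that include *Ptch1*, *Hhip* and *Gli1*. Ptch1 and Hhip both bind the ligand and so limit its reach. Gas1, Cdon and Boc bind the ligand at the cell surface and help Ptch1 to receive it, and in other mouse tissues their genes are held down where HH signalling is high.

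Promoter windows, from 250 bases before to 50 bases after the RefSeq start site (GRCm38.p6), were found for 7 of the 9 genes. They are shown for *Hhip*, the gene with the largest fall in the mutant foreguts among the 8 tested, and for *Gas1*, which rose at both stages. Capitals mark CCACCC, the core of the Gli binding motif, searched on both strands.
*Hhip* promoter, chr8:80057959-80058258, minus strand: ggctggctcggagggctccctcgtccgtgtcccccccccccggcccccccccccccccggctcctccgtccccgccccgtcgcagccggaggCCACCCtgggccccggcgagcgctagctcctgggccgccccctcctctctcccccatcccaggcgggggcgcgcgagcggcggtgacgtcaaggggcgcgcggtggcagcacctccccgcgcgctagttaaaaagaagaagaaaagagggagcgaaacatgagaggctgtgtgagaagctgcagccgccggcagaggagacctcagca
*Gas1* promoter, chr13:60177486-60177785, minus strand: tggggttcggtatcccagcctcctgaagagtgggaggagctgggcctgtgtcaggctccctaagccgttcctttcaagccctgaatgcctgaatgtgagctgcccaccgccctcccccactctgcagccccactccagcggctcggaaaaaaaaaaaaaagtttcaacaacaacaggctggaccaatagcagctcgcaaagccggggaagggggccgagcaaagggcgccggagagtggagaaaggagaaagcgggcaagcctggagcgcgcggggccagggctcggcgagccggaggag
The core lay 158 bases upstream of the *Hhip* start, at -158, and was also found at -162 in *Smo* and at -181 and -246 in *Ihh*, but not in these windows of *Gas1*, *Cdon*, *Ptch1* or *Disp1*. These 3 of 7 genes compare with 31.5% of 32851 mouse promoter windows of the same length that hold it. That share counts windows rather than genes, and *Disp1* had an additional window, also without the core. The longer motif GACCACCCA, which contains the core, was in none of the windows of the 7 genes and in 0.253% of all windows. The window of *Cdon* had a GC content of 44.7%, against 62.3% for *Gas1*, 73.7% for *Hhip* and 76.3% for *Ptch1*. The windows of *Cdon* (chr9:35451826-35452125) and *Ptch1* (chr13:63565686-63565985) lay inside the genes as GENCODE places them. The outermost starts of these genes were therefore not searched.

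Estimated counts summed to 9.65 to 15.9 M per E11.5 library and 15.4 to 17.99 M per E10.5 library, and values are given as CPM, counts scaled to library size with TMM factors over the 13 libraries. *Gli3*, whose reads include those of the transgene, had 437, 376, 403 and 399 CPM in mutant tracheas, against 266, 192 and 204 in control tracheas. In foreguts it had 329.6, 323 and 352 CPM in mutants, against 256, 250.6 and 284 in controls. *Nkx2-1*, a defining gene of the respiratory field, was detected in every library, at 29.6 to 53.8 CPM in mutant tracheas and 24.6 to 40.7 CPM in control tracheas. Its lowest tracheal values, 29.6 and 24.6 CPM, were those of mutant 2 and control 1. A pair of E11.5 libraries stood apart, mutant 2 and control 1, which had the highest *Shh* and *Ptch1* of their groups and the lowest of the tracheal mesenchyme gene *Tbx4*. *Tbx4* was 19.7 CPM in mutant 2, against 42.1, 37.95 and 37.5 in mutants 1, 3 and 4, and it was 46.05 CPM in control 1, against 76.7 and 73.7 in controls 2 and 3. Other genes were split. *Tbx5* was also lowest there, at 215 CPM in mutant 2 (258 to 310 in other mutants) and 247 in control 1 (347 and 360 in other controls). The mesenchyme genes *Foxf1* (44.5 CPM in mutant 2, 74.2 in control 1) and *Foxf2* (14.4 and 34.3 CPM) were the highest of their groups there. For *Foxf1* in control 1 the lead was small, over 69.9 and 68.3 CPM in controls 2 and 3. Judged by *Xist* above 100 CPM, 2 of 4 mutant tracheas and 1 of 3 control tracheas came from females, as did 2 of 3 mutant foreguts (replicates 1 and 2) and 0 of 3 control foreguts.

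Epithelial markers moved with the genotype. Of 12 such markers, 10 were called higher in mutant tracheas, against 1.81% of all genes, and 0 in mutant foreguts, against 0.314%. At an unadjusted p under 0.05 in edgeR's test there were 12 in tracheas and 8 in foreguts. Of all genes, 2936 of 15376 in tracheas and 2874 of 15295 in foreguts were below that limit. The summed level of the 12 markers was 400 to 640 CPM in mutant against 197 to 278 CPM in control tracheas, and 572 to 750 CPM in mutant against 466 to 626 CPM in control foreguts. None of the 12 was at 0 in any library. Of 10 heart muscle markers 0 were called by edgeR at either stage, though 8 in tracheas and 9 in foreguts had an unadjusted p under 0.05. They summed to 917 to 5070 CPM in mutant and 64.9 to 876 CPM in control tracheas, and to 131 to 2260 CPM in mutant and 79.3 to 88.8 CPM in control foreguts. Of 5 markers of notochord and floor plate, another source of Shh in the embryo, 3 had enough counts to be tested and 0 were called by edgeR (1 in tracheas and 0 in foreguts at an unadjusted p under 0.05), with sums of 86.6 to 154 CPM in mutant and 89.6 to 98.2 CPM in control tracheas and of 101 to 158 CPM in mutant and 96.6 to 123 CPM in control foreguts. Of the notochord genes, *Noto* was at 0 in all 6 foreguts and *T* had 3 to 9 counts in each of them. Endothelial markers, 6 in all, were apart by genotype in their sums, at 330 to 404 CPM in mutant and 233 to 283 CPM in control tracheas and 274 to 398 CPM in mutant and 235 to 269.9 CPM in control foreguts. *Kdr* was called higher in tracheas (log2 fold change 0.89, adjusted p 0.0171) and *Tek* in foreguts (0.94, adjusted p 0.0485), both receptors of endothelial growth signals. Of the 6, 3 in tracheas and 4 in foreguts had an unadjusted p under 0.05 in edgeR's test. Markers of neural crest, glia and neurons, 8 in all with 0 called by edgeR at either stage (0 in tracheas and 1 in foreguts at an unadjusted p under 0.05), summed to 80.2 to 89.9 CPM in mutant and 54.6 to 133 CPM in control tracheas. In foreguts they summed to 745 CPM in mutant 3, 44.1 and 69.0 CPM in mutants 1 and 2, and 82.0 to 131 CPM in controls. Of 11 mesenchyme markers 10 were tested, with 7 at an unadjusted p under 0.05 in edgeR's test at each stage. *Twist1* was called higher in tracheas, *Col1a2* higher in foreguts and *Foxf1* lower at both stages. The 11 summed to 1879.7 to 2377 CPM in mutant and 1317 to 1865.5 CPM in control tracheas. In foreguts their sums overlapped, at 809 to 978 CPM in mutants and 917 to 1117 CPM in controls. The part of these cell types in the results that follow was not tested, and in whole tissue fewer cells of a type cannot be told apart from less RNA per cell.

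The coreceptors *Gas1* and *Cdon* rose in mutant tracheas, and *Gas1* rose in mutant foreguts, where *Ptch1* and *Hhip* fell. Mutants were compared with controls at each stage by edgeR's quasi-likelihood test, and a gene was called at an adjusted p under 0.05. At E11.5, 2 of the 8 genes tested were called higher, against 1.81% of 15376 genes, and 0 lower, against 0.689%. At E10.5, 1 of 8 was called higher, against 0.314% of 15295 genes, and 2 lower, against 0.405%. *Ihh* had too few counts to be tested in any comparison. The values of mutant and control tracheas did not overlap for 3 of the 8 genes, against 16.9% of all genes, and those of mutant and control foreguts for 8 of 8, against 25% of all genes. Over all genes tested the median log2 fold change was -0.01 at E11.5 and 0.03 at E10.5.

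**Figure D1:**
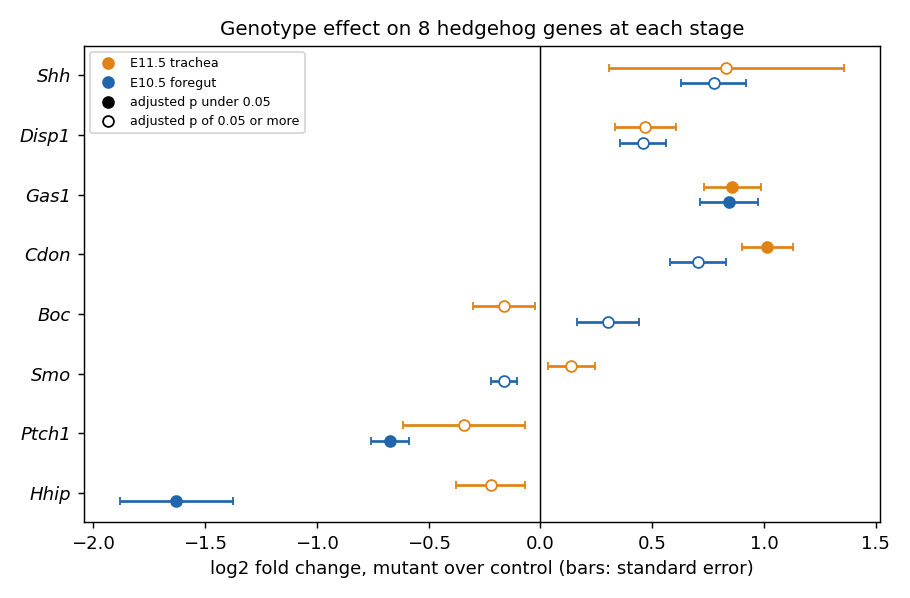
The log2 fold change of mutant over control (horizontal axis, bars of 1 standard error) is plotted for each gene in tracheas (orange, above) and foreguts (blue, below), with filled points for an adjusted p under 0.05. *Gas1* lies near 0.86 at E11.5 and 0.85 at E10.5, whereas *Hhip* lies at -0.22 at E11.5 and -1.63 at E10.5.

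*Gas1*, a membrane-anchored coreceptor, was the only one of the 8 genes called at both stages. It had 186, 163, 129 and 146 CPM in mutant tracheas, against 86.4, 90.5 and 81.0 CPM in control tracheas. In foreguts it had 94.4, 78.7 and 91.0 CPM in mutants, against 44.7, 43.4 and 59.3 CPM in controls. Every mutant library lay above every control library of its stage. Its log2 fold change reached 0.86 at E11.5 (standard error, SE, 0.128, adjusted p = 0.00821, edgeR quasi-likelihood) and 0.85 at E10.5 (SE 0.131, adjusted p = 0.0419). The foregut call held in 8 of 11 other settings (adjusted p up to 0.11, on log2 TPM). It held in 2 of 6 fits that left out 1 library and failed without control 1, control 2, mutant 1 or mutant 2 (adjusted p 0.212, 0.15, 0.0984 and 0.0601). The tracheal call held in 6 of 7 fits that left out 1 library and failed without control 3 (adjusted p 0.0656).

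*Cdon*, an immunoglobulin-family coreceptor that gathers the ligand at the cell surface, had the smallest adjusted p of the 8 genes in the tracheas. Mutant tracheas had 139, 123, 137 and 147 CPM and control tracheas had 64.9, 76.8 and 60.5 CPM, 1.02 higher on the log2 scale (SE 0.115, adjusted p = 0.00164, edgeR quasi-likelihood). Of the 15376 genes tested at E11.5 it was at rank 20 by p, and it was called in each of the 7 fits that left out 1 library and in each of 11 other settings. Mutant foreguts had 53.2, 61.7 and 48.2 CPM and control foreguts had 29.9, 31.6 and 38.6 CPM. The foregut groups did not overlap, at a log2 fold change of 0.70, but the adjusted p was 0.0547. *Cdon* was called in the foregut in 4 of 11 other settings (adjusted p 9.5e-05 with DESeq2 to 0.159 on log2 TPM) and in 1 of 6 fits that left out 1 library, that without mutant 3 (adjusted p 0.0315, against up to 0.224 in the others).

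*Boc*, the closest relative of *Cdon* among the coreceptors, was not called at either stage. Its tracheal values overlapped, at 74.2, 62.8, 80.4 and 92.2 CPM in mutants and 84.6, 97.7 and 77.2 CPM in controls. There the difference on the log2 scale was -0.16 (95% confidence interval -0.47 to 0.14), with an adjusted p of 0.547 from edgeR's quasi-likelihood test. In foreguts *Boc* had 44.3, 34.5 and 34.2 CPM in mutants, against 25.8, 32.5 and 33.4 CPM in controls, with a gap of less than 1 CPM between the groups. Between foreguts it was 0.30 on the log2 scale (95% confidence interval -0.02 to 0.63, adjusted p = 0.286).

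**Figure D2:**
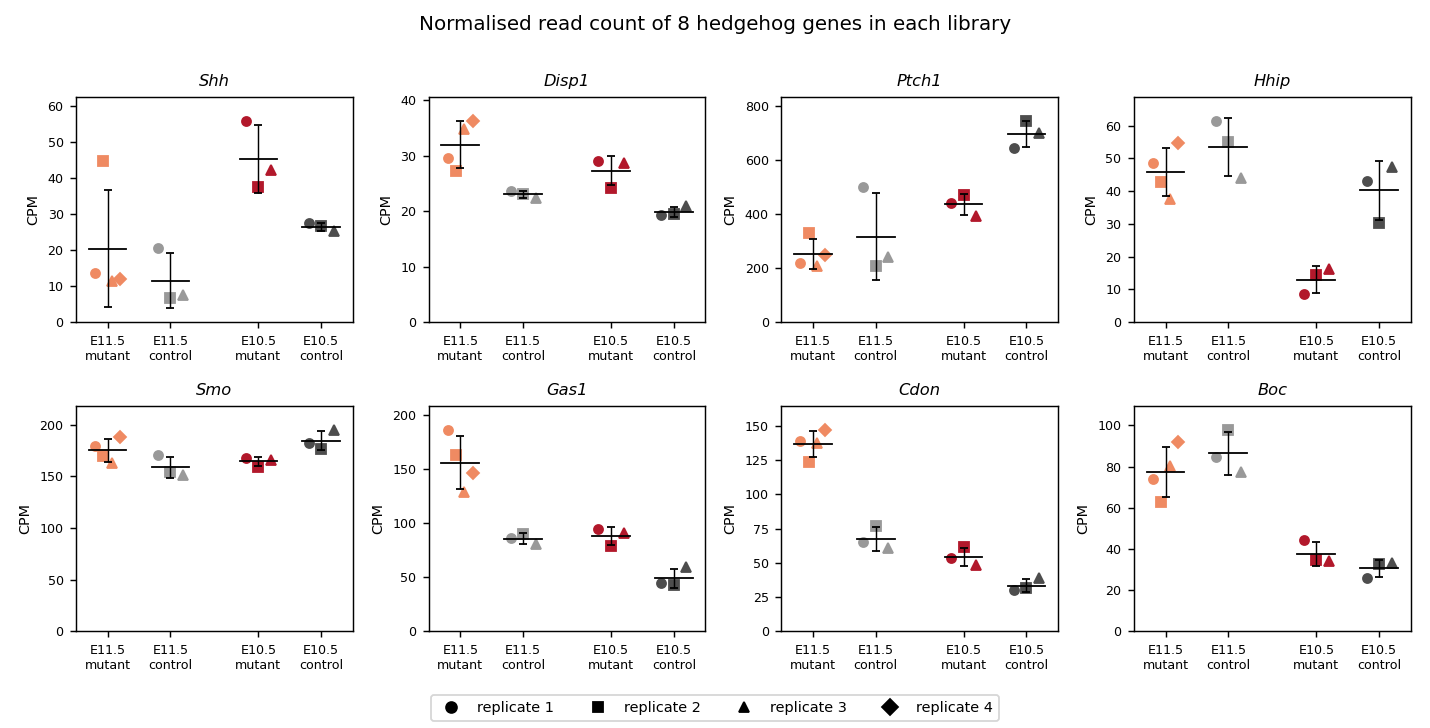
CPM (vertical axes, from 0) of the 8 tested genes in each library, by stage and genotype, with a symbol for each replicate number, a line at the group mean and bars of 1 SD. The mutant points of *Gas1* lie above the control points at both stages (129 to 186 against 81.0 to 90.5 CPM at E11.5), and those of *Hhip* lie below them at E10.5 only (8.46 to 16.1 against 30.2 to 47.3 CPM).

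*Hhip*, the secreted and membrane-bound inhibitor that traps HH ligands, had the largest fold change of the 8 genes in the foregut. Mutant foreguts had 8.46, 14.4 and 16.1 CPM, against 43.1, 30.2 and 47.3 CPM in control foregut libraries. The lowest control was thus well above the highest mutant. On the log2 scale the fall was -1.63 (SE 0.252, adjusted p = 0.0419, edgeR quasi-likelihood), so that mutants held 0.323 of the control level. In tracheas the groups overlapped, with 48.7, 42.7, 37.7 and 54.6 CPM in mutants and 61.4, 55.1 and 43.8 CPM in controls (log2 -0.22, SE 0.153, adjusted p = 0.455). The foregut call held in only 1 of 6 fits that left out 1 library (adjusted p 0.0241 to 0.211). It held in 5 of 11 other settings (adjusted p 7.8e-10 with DESeq2 to 0.0931 on log2 TPM). With library size only, limma-voom and a replicate block the adjusted p was 0.0579, 0.053 and 0.0506. With sex as a covariate the log2 fold change was -1.32, from a fit in which mutant 3, the only male mutant, stands for the mutants.

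*Ptch1*, the receptor and a direct target of the signal, also fell in the foregut, with 443, 472 and 394 CPM in mutants, against 647, 745 and 699 CPM in controls. The difference of -0.67 on the log2 scale passed the test (SE 0.0860, adjusted p = 0.0297, edgeR quasi-likelihood), and the groups did not overlap. With all 13 libraries in 1 fit, whose estimate of spread takes in the variable tracheas, the adjusted p was 0.257, and *Ptch1* was called in 2 of 6 fits that left out 1 foregut library. In tracheas it had 218, 329.7, 207 and 249 CPM in mutants and 502, 209 and 240 CPM in controls (log2 -0.34, SE 0.274, adjusted p = 0.524). The sign of the tracheal value rested on control 1: without it the log2 fold change was 0.15 (adjusted p 0.632).

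*Shh*, the main HH ligand of the foregut epithelium, was not called at either stage. Mutant foreguts had 55.9, 37.7 and 42.2 CPM, against 27.6, 26.7 and 25.3 CPM in control foreguts, and every mutant was above every control. At 0.78 on the log2 scale it missed the threshold (SE 0.145, adjusted p = 0.056, edgeR quasi-likelihood). It was called in 2 of 11 other settings (adjusted p 9.5e-05 with DESeq2 to 0.507 with all 13 libraries in 1 fit) and in 1 of 6 fits that left out 1 library, that without mutant 3 (adjusted p 0.0496, against up to 0.217 in the others). Mutant tracheas had 13.6, 44.7, 11.54 and 11.97 CPM and control tracheas had 20.5, 6.69 and 7.46 CPM. These groups overlapped through control 1, and the log2 fold change of 0.83 (SE 0.526, adjusted p = 0.414) was 0.10 without mutant 2 (adjusted p 0.918) and 1.53 without control 1 (adjusted p 0.104).

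The level of *Shh* was also set against *Epcam*, a marker of the epithelium that makes the ligand. On TPM, which is scaled for transcript length, *Shh* per *Epcam* was 0.151 to 0.182 in mutant tracheas 1, 3 and 4, and 0.445 in mutant 2. It was 0.156 and 0.177 in control tracheas 2 and 3, and 0.512 in control 1. With all libraries the ratio overlapped between the genotypes, and the libraries with the highest *Shh* of each group had its highest values. *Epcam* itself was 55.5 to 77.1 CPM in mutant and 30.8 to 32.95 CPM in control tracheas, and *Cdh1*, another epithelial marker, was 63.1, 129.8, 62.7 and 64.2 CPM in mutants and 51.96, 19.1 and 22.4 CPM in controls, high in mutant 2 and control 1. In foreguts the ratio was 0.394 to 0.474 in mutants and 0.281 to 0.397 in controls, which overlapped.

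**Figure D3:**
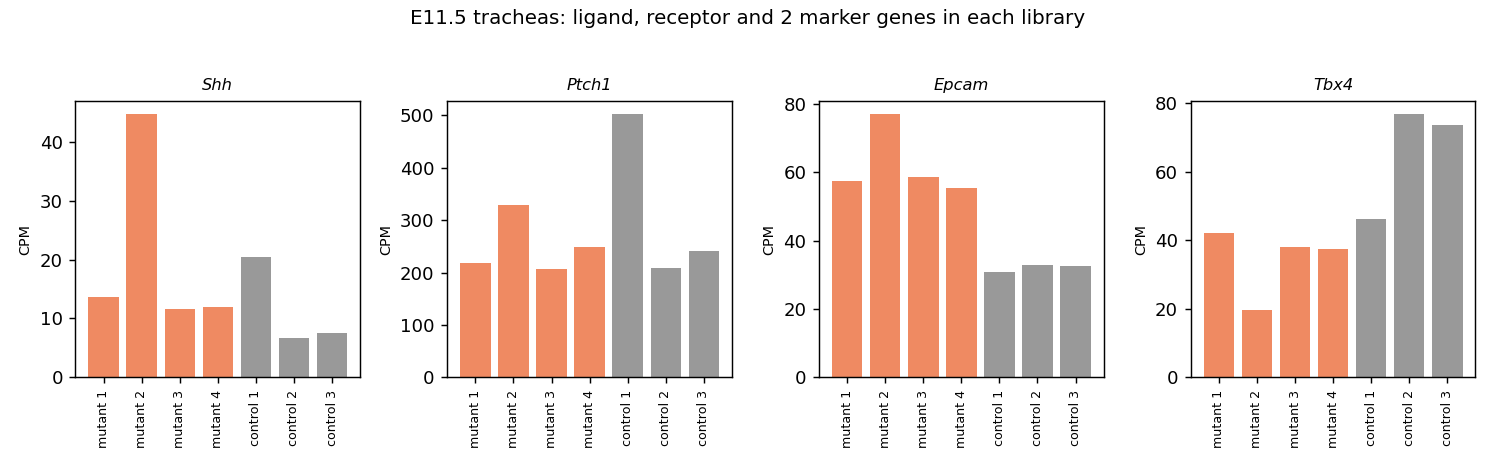
CPM (vertical axes, from 0) of *Shh*, *Ptch1*, *Epcam* and *Tbx4* in each E11.5 trachea, with mutants in orange and controls in grey. Mutant 2 and control 1 have the highest *Shh* (44.7 and 20.5 CPM) and *Ptch1* (329.7 and 502 CPM) of their groups and the lowest *Tbx4* (19.7 and 46.05 CPM). *Epcam* is 55.5 to 77.1 CPM in mutants and 30.8 to 32.95 CPM in controls.

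*Disp1* encodes the transporter that releases the lipid-modified ligand from the producing cell. Its groups were apart at both stages, with 29.6, 27.3, 34.7 and 36.2 CPM in mutant tracheas, against 23.6, 23.2 and 22.3 CPM in control tracheas, and 29.0, 24.2 and 28.6 CPM in mutant foreguts, against 19.3, 19.4 and 20.96 CPM in control foreguts. Fold changes on the log2 scale were 0.47 at E11.5 (SE 0.137, adjusted p = 0.1) and 0.46 at E10.5 (SE 0.102, adjusted p = 0.0778), neither of which passed edgeR's quasi-likelihood test. *Ihh*, a ligand of gut and cartilage, was near the floor of detection: mutant tracheas had 1, 1, 1 and 0 counts and control tracheas 0, 1 and 0, while mutant foreguts had 13, 4 and 5 counts and control foreguts 10, 5 and 2. In the foregut its summed counts of 22 in mutants and 17 in controls gave a ratio of 1.39 with a 95% exact interval of 0.704 to 2.79, which covers counting error only.

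*Smo*, the membrane protein that passes the signal into the cell, was not called at either stage. Mutant tracheas had 180, 170, 163 and 189 CPM and control tracheas had 171, 154 and 152 CPM. In foreguts the mutants had 168, 159 and 166 CPM and the controls 183, 177 and 195 CPM, so that the groups were apart there but by a small step. The log2 fold change was 0.14 at E11.5 (95% confidence interval -0.09 to 0.37, adjusted p = 0.492, edgeR quasi-likelihood) and -0.16 at E10.5 (95% confidence interval -0.30 to -0.02, adjusted p = 0.206).

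The genotype effects at E11.5 and E10.5 were set against each other by an interaction term, fitted over the 13 libraries together. None of the 8 genes was called, against 0.0248% of 16132 genes called with a positive difference, E11.5 minus E10.5, and 0% with a negative one. At an unadjusted p under 0.05 there were 2294 such genes in all, and the 3 of the 8 below that limit were *Hhip*, *Smo* and *Boc*. Of the 8 genes *Hhip* had the largest difference, 1.41 on the log2 scale, E11.5 minus E10.5 (SE 0.307, adjusted p = 0.141, edgeR quasi-likelihood). DESeq2 called *Hhip* (adjusted p 0.00272), the only gene of the 8, among 277 genes in all, and edgeR's test called it when control trachea 1 was left out (adjusted p 0.0251), a fit that called 633 genes in all. Limma-voom called none of the 8. The differences of *Smo* and *Boc* were 0.31 and -0.46 (adjusted p 0.252 and 0.334). For *Gas1* and *Disp1* the difference was 0.02 in each case, with 95% confidence intervals of -0.39 to 0.43 and -0.34 to 0.37.

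Levels were compared between genes on TPM, which was deposited in a separate table for each stage. *Ptch1* was the most abundant of the 9 in every group, at 149 ± 37.9 TPM in mutant tracheas (SD, n = 4), 199 ± 106 in control tracheas (SD, n = 3), 272 ± 21.5 in mutant foreguts (SD, n = 3) and 434 ± 44.6 in control foreguts (SD, n = 3). In mutant tracheas *Gas1* (79.0 ± 13.2 TPM) and *Smo* (69.2 ± 2.07 TPM) came next with overlapping values, followed by *Cdon* (30.2 ± 0.742) and *Boc* (28.4 ± 3.10), which also overlapped. Below them *Shh* was at 28.2 TPM in mutant 2 and at 8.07, 7.12 and 6.57 TPM in mutants 1, 3 and 4, so that its place rested on 1 library, while *Disp1* (10.9 to 13.1 TPM) was apart from *Hhip* (6.67 to 8.63 TPM). In control tracheas *Smo* (66.5 ± 7.36 TPM), *Gas1* (45.8 ± 3.77), *Boc* (34.7 ± 5.19) and *Cdon* (15.8 ± 1.54) followed each other with no overlap, and *Hhip*, *Disp1* and *Shh* (9.71, 9.59 and 7.42 TPM on average) overlapped. Mutant foreguts had the order *Smo* (65.5 ± 2.64 TPM), *Gas1* (44.8 ± 4.42) and *Shh* (27.1 ± 5.25), then *Boc*, *Cdon* and *Disp1* with overlapping neighbours (13.9, 12.1 and 11.48 TPM), and *Hhip* at 2.25 ± 0.739. Control foreguts had *Smo* (74.4 ± 9.83 TPM), *Gas1* (25.4 ± 6.77), *Shh* (16.03 ± 0.799) and *Boc* (11.4 ± 2.06) apart from each other, while *Disp1*, *Cdon* and *Hhip* (8.24, 7.39 and 7.07 TPM) overlapped. *Ihh* did not exceed 0.56 TPM in any library.

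The genotypes were apart in the make-up of their coreceptors. *Boc* gave 17.5 to 24.1% of the summed TPM of *Gas1*, *Cdon* and *Boc* in mutant tracheas and 34.7 to 38.1% in control tracheas. In foreguts its share was 18.1 to 21.4% in mutants and 23.9 to 29.6% in controls. The summed coreceptors reached 128 to 151 TPM in mutant tracheas, against 85.2 to 105 TPM in control tracheas, and 65.4 to 74.8 TPM in mutant foreguts, against 37.8 to 55.9 TPM in control foreguts. In foreguts the groups were also apart in receptor per coreceptor: *Ptch1* over the summed coreceptors was 3.47 to 4.47 in mutant and 8.55 to 11.2 in control foreguts. In tracheas this ratio was 0.887 to 1.45 in mutants and 1.22 to 3.25 in controls, with an overlap. The inhibitor per ligand, *Hhip* over *Shh* on TPM, was 0.0437 to 0.110 in mutant foreguts and 0.326 to 0.537 in control foreguts, and 0.275 to 1.31 in mutant and 0.859 to 2.37 in control tracheas. These ratios combine the values tested above and were given no test of their own.

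**Figure D4:**
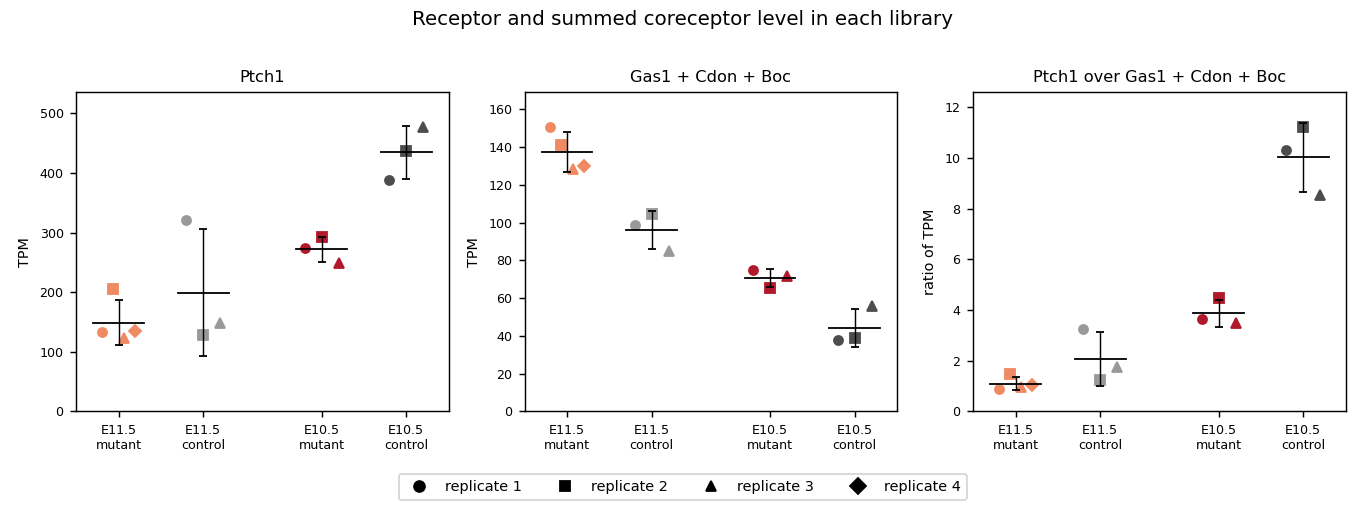
TPM of *Ptch1* (left), summed TPM of *Gas1*, *Cdon* and *Boc* (middle) and the ratio of the first to the second (right) in each library, with axes from 0, a line at the group mean and bars of 1 SD. The ratio is 3.47 to 4.47 in mutant foreguts and 8.55 to 11.2 in control foreguts, and the trachea groups overlap.

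The 3 coreceptors were higher in E11.5 tracheas than in E10.5 foreguts in both genotypes, and *Ptch1* was lower. In mutants *Cdon* differed by 1.33 on the log2 scale (adjusted p = 1.7e-05, edgeR quasi-likelihood), *Boc* by 1.04 (adjusted p 0.000462) and *Gas1* by 0.83 (adjusted p 0.00128). In controls *Boc* differed by 1.499 (adjusted p 4.3e-05), *Cdon* by 1.01 (adjusted p 0.000198) and *Gas1* by 0.81 (adjusted p 0.00195). *Hhip* was also higher in mutant tracheas than in mutant foreguts, by 1.82 (adjusted p 0.000182), whereas in controls it differed by 0.41 (adjusted p 0.197). *Ptch1* was lower by a log2 change of -0.80 in mutants (adjusted p 0.0392) and -1.14 in controls (adjusted p 0.00881), and the mutant call held in only 4 of 13 fits that left out 1 library and failed in a DESeq2 fit (adjusted p 0.0508). *Shh* had a log2 change of -1.14 in mutants and -1.21 in controls (adjusted p 0.097 and 0.0968), and in controls it was called in 2 of 13 fits that left out 1 library, the one without control trachea 1 among them.

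Among the 8 genes, 4 were called higher and 1 lower in mutants, where 8.12% and 7.4% of 16132 genes were called, and 3 were called higher and 1 lower in controls, where 11.2% and 10.1% were. Stage, tissue and the separate handling of the tables cannot be told apart in these comparisons. The 12 epithelial markers moved with stage too, with 0 higher and 4 lower in mutants and 0 higher and 12 lower in controls. *Ihh* had 3 counts over the mutant tracheas and 22 over the mutant foreguts, a ratio of 0.132 (95% exact interval 0.0254 to 0.441), and 1 count over the control tracheas and 17 over the control foreguts, a ratio of 0.0774 (95% exact interval 0.00185 to 0.494). Both intervals cover counting error only, over reads of amplified RNA summed across embryos, and 13 of the 22 mutant counts came from 1 library.

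The rest of the pathway was read from 33 other HH genes, among them processors of the ligand, cilium proteins, kinases and the Gli factors, which were chosen with earlier results of these data known. In mutant tracheas 4 of 33 were called higher and 0 lower (median log2 fold change 0.09), and in mutant foreguts 0 were called in either direction (median 0.02, with 9 at an unadjusted p under 0.05 in edgeR's test, as were 2874 of all 15295 genes). Of all genes, 1.81% were called higher in tracheas. *Gli3* was among the 4, and its reads include those of the transgene, which only the mutants could switch on. Its rise therefore cannot be told apart from the allele itself, and the 4 of 33 should not be set against 1.81% without that limit. *Gpc4*, *Scube3* and *Scube1* are free of it. *Gli3* was also among the 9 in foreguts at an unadjusted p under 0.05, and among the 6 in the interaction test below. The 4 were *Gli3* (0.87, adjusted p = 0.0102, edgeR quasi-likelihood), *Gpc4*, a glypican of the cell surface (0.93, adjusted p 0.0198), *Scube3* (0.76, adjusted p 0.0251) and *Scube1* (0.99, adjusted p 0.0291), both secreted proteins of the family that carries the ligand off the cell. Of 7 genes known as induced by HH in mouse tissues, *Ptch1* and *Hhip* included, 1 was called lower in mutant tracheas, *Foxf1* at -0.94 (adjusted p 0.00875), and 4 in mutant foreguts, the other two being *Foxf1* at -1.51 (adjusted p 0.0186) and *Foxf2* at -1.81 (adjusted p 0.00746). Of all genes, 0.689% were called lower in tracheas and 0.405% in foreguts. Foxf1 and Foxf2 are transcription factors of the foregut mesenchyme. The medians of the 7 were -0.43 in tracheas and -0.88 in foreguts. *Gli1*, a transcription factor and target often used as a readout of the signal, was at -0.43 in tracheas (adjusted p 0.164) and -0.43 in foreguts (adjusted p 0.0624), and was not called. In edgeR's interaction test the 33 and 7 genes gave 0 calls, with 6 and 2 at an unadjusted p under 0.05, as were 2294 of all 16132 genes.

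Over the 13 libraries, with the mean of each stage removed from log2 CPM, the coreceptors *Gas1* and *Cdon* had the highest correlation of any pair among the 8 genes (Pearson's r = 0.904), followed by *Disp1* with *Cdon* (0.87) and with *Gas1* (0.828). *Boc* was related to *Gas1* at 0.147 and to *Cdon* at 0.162, and *Shh* to *Ptch1* at 0.246. *Ptch1* and *Hhip* were related at 0.588. These values are a description: the points share the split into mutant and control. Among 11043 genes of at least 5 CPM on average, the most alike were *Zim1* (0.982), *Asb4* (0.979) and *Stab1* (0.97) for *Cdon*, *Celf2* (0.974), *Ccbe1* (0.949) and *Ldb2* (0.944) for *Gas1*, and *Wnt5a* (0.95), *Irx2* (0.941) and *Exoc2* (0.925) for *Ptch1*. *Hhip* was most like *Arhgap42* (0.921), *Akna* (0.921) and *Arhgap28* (0.92), *Disp1* like *Mmrn1* (0.958), *Col14a1* (0.951) and *Flrt2* (0.948), and *Shh* like *Anxa8* (0.931), *Ttc6* (0.928) and *Klf5* (0.92). *Smo* was most like *Pde3b* (0.927), *Tnpo1* (0.913) and *Elovl5* (0.907). *Boc* had no gene above 0.841, which was that of *Kcp*, followed by *Dnah7b* (0.835) and *AK171953* (0.812).

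The kit did not mark strand, so sense and antisense reads over the same bases cannot be told apart. By the GENCODE annotation (GRCm38), *Shh* (chromosome 5, 28456815 to 28467256), *Hhip* (chromosome 8, 79965851 to 80058006) and *Gas1* (chromosome 13, 60174405 to 60177365) share exon bases with antisense transcripts. The other genes have no such overlap: *Ptch1* (chromosome 13, 63508328 to 63573598), *Cdon* (chromosome 9, 35421128 to 35507652), *Boc* (chromosome 16, 44485049 to 44558897), *Smo* (chromosome 6, 29735503 to 29761365), *Disp1* (chromosome 1, 183086266 to 183221522) and *Ihh* (chromosome 1, 74945315 to 74951672).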

How the data were processed

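RNA of E11.5 tracheas (4 mutant, 3 control) and E10.5 foreguts (3 mutant, 3 control) was amplified (Ovation v2), and Nextera XT libraries of it were sequenced from 1 end for 75 nt. After trimming, the authors used Bowtie2 on mm10 and RSEM (1.3.0 in the submitters' processing notes) within CSBB 3.0, with a gene annotation not given in the sources used here. In the deposited tables the estimated counts of RSEM are whole numbers for each gene symbol with no normalization. The deposited TPM values come from those reads too, scaled by the authors for transcript length and library size within each library. All 4 mutant tracheas were used, and replicates are separate dissections.

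The main tool was edgeR 4.0.16 (R 4.3.3), with filterByExpr, TMM factors, the quasi-likelihood test within each stage and Benjamini-Hochberg adjustment over all genes tested, with a call at an adjusted p under 0.05. The interaction and the stage contrasts came from 1 fit of the 13 libraries. Printed CPM are scaled by TMM over the 13 libraries, so fold changes within a stage can differ slightly from ratios of CPM. Standard errors equal the log2 difference over the square root of F. Methods name CSBB-Shiny for differential expression and no test within it. The fits were tested on simulated data.

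The 9 genes, the lists and the tests were chosen with earlier results of these data known. The lists held 33 other HH genes, 7 induced targets, and markers of epithelium, mesenchyme, heart muscle, endothelium, neural cells, and notochord and floor plate. Lists for foregut and respiratory identity, blood, hepatoblasts and skeletal muscle were also made, and their sums are not given here. From a list, called members were named, at most 4 by smallest adjusted p, with *Gli1* and *Gli3* always. *Foxf1* and *Foxf2* also belong to the induced targets. *Tbx4*, *Nkx2-1*, *Noto*, *T*, *Epcam* and *Cdh1* were named from the marker lists after their values were seen. The values of *Foxf1*, *Foxf2* and *Tbx5* in single tracheas were likewise added after they were seen. The 3 most alike genes were those with the highest Pearson's r of log2 CPM (prior count 2). Alternatives were RLE factors, library size only, a minimum of 10 counts in each library or no filter, DESeq2 1.42.0, limma-voom and log2 TPM with a pseudocount of 1 or 0.1 in limma 3.58.1, all 13 libraries in 1 fit, sex as a covariate, a replicate block, a log2 fold change of at least 1 and leaving out each library. Promoter sequences are from RefSeq (GRCm38.p6). The name of the Cre driver is not reported here.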

Additional observations from a re-analysis of the deposited data

Results flagged for a closer look

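*Shh* in mutant trachea 2 lay far from the other mutant tracheas, at 44.7 CPM, against 13.6, 11.54 and 11.97 CPM in replicates 1, 3 and 4. The gap to the nearest of the others was 0.938 of the range of the group. In the same library the heart muscle markers summed to 5070 CPM and the epithelial markers to 640 CPM, each the highest of the 7 tracheas, and *Tbx4* was the lowest, at 19.7 CPM. Their part in the high value of *Shh* was not tested. By chance about 1 in 20 groups of 4 to 10 samples is marked in this way for each gene examined. Only the mutant tracheas were large enough, and there 8 genes were examined.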

How the results depend on the processing

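At E10.5, where 3 genes were called, the count was 1 with library size only, 5 with no filter, 6 with DESeq2, 1 on log2 TPM with either pseudocount, and 1 with fold changes required to reach 1 on the log2 scale. Calls over all genes moved too, from 110 in the main fit to 59 with library size only, 217 with no filter and 796 with DESeq2. They were 28 and 34 on log2 TPM (pseudocount 1 and 0.1) and 39 at that fold limit. Leaving out 1 foregut library gave 0 to 5 calls: 0 without control 1, control 2 or mutant 1, 1 without control 3 or mutant 2, and 5 without mutant 3. Over all genes, 0 were called without control 1, 9 without control 2 and 24 without mutant 1. There were 13 without control 3, 48 without mutant 2 and 226 without mutant 3. Each of these fits also had fewer samples, and the cause of the changes was not tested. At E11.5, where 2 were called, the count was 1 at that fold limit and 1 to 2 with a library left out. Over all genes, 193 were called at that limit and 60 to 1363 with a library left out, against 385. For the interaction the count was 1 with DESeq2 and 0 to 1 with a library left out, against 0. Over all genes DESeq2 called 277, and fits with a library left out called 0 to 633, against 4. Between stages, mutants had 3 calls at that fold limit and 4 to 6 with a library left out, against 5, and controls had 4 to 6, against 4. Over all genes, mutants had 768 at that limit and 1435 to 3009 with a library left out, against 2503. Controls had 2032 to 3905 with a library left out, against 3444. No sign of a called gene was reversed. Signs of values that were not called turned for *Ptch1* at E11.5 (-0.57 to 0.15 with a library left out, 0.15 without control 1) and for interactions close to 0: with a library left out *Disp1* gave -0.055 to 0.085, *Gas1* -0.14 to 0.11 and *Shh* -0.66 to 0.77. Interactions also turned with library size only (*Disp1* -0.047, *Gas1* -0.040), at least 10 counts in each library (*Disp1* -0.0041, *Gas1* -0.00051), limma-voom (*Gas1* -0.00067) and the replicate block (*Disp1* -0.052).

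Whether replicate numbers pair the samples was not settled. Deviations from group means correlated at -0.0878, -0.0793 and 0.111 for same-numbered tracheas. For same-numbered foreguts they correlated at 0.0809, 0.144 and 0.177, and there each library correlated best with its own number. The main fits took the samples as unpaired. With a replicate block 2 genes were called at E11.5, 2 at E10.5 (*Ptch1* and *Gas1*), 0 in the interaction, and 4 between stages in mutants and 4 in controls. Over all genes that block gave 157, 82, 0, 1660 and 3462 calls in the same order. With 1 to 13 counts where it was detected, *Ihh* was too shallow for a change between genotypes to be detectable.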
